A study of Rattus norvegicus with 12 samples.

Results

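The rapamycin-resistant line ELT3-245 was compared with its parent ELT3 while both lines were in rapamycin. The comparison took the 3 arrays of ELT3-245 and the 3 arrays of ELT3 treated with 20 nM rapamycin for 24 h, chosen by their sample labels, which are 6 of the 12 arrays of the study. The other 6 arrays hold 3 cultures of ELT3-245 and 3 of ELT3 kept for 24 h in DMSO, the solvent of the drug, and served to show which line differences were also there without rapamycin. ELT3 is a cell line from a uterine leiomyoma of an Eker rat and lacks tuberin, the product of Tsc2. ELT3-245 came out of a xenograft tumour of ELT3 cells in 1 immunodeficient mouse that did not respond to rapamycin, and is also without tuberin. The 2 lines therefore differ in their passage through a mouse and a drug-treated tumour as well as in their response to the drug, and 1 resistant line from 1 tumour was studied. The labels describe cultures grown in triplicate. Nothing states that the experiment was repeated, so the p-values measure only the spread between these cultures, and 3 arrays a group limit their precision. The labels also describe a stock and a volume that would give a final dose in the micromolar range, against the 20 nM that they state and that is used here.

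Rapamycin binds the immunophilin FKBP12 (Fkbp1a), and the pair blocks mTORC1, the kinase complex that drives ribosome production, protein synthesis and entry into the cell cycle. Tuberin and hamartin (Tsc1) form the complex that holds back Rheb, the GTPase that activates mTORC1, so cells without tuberin keep mTORC1 active. Rapalogs, as these drugs are called, slow the growth of such cells without killing them. The question here is which transcripts set the resistant line apart from its parent while the drug is present.

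Signals of rat Clariom S arrays were deposited as log2 values, on which a difference of 1 is a doubling. All differences below are ELT3-245 minus ELT3, and all standard errors and adjusted p-values come from limma fitted to the 12 arrays. A probe set was called when its adjusted p lay under 0.05 (adjusted over all 23188 probe sets by Benjamini and Hochberg) and its signal differed by at least 1.5-fold. Of the 23188 probe sets, 15053 had 1 gene symbol, which gave 15041 named genes. Arrays of one group correlated at 0.9928 to 0.9966, and arrays of the 2 lines in rapamycin at 0.9697 to 0.9735, over probe sets, which do not vary independently. Principal component 1 of all 12 arrays (58.1% of the variance) parted the lines and component 2 (19.3%) the treatments, and no array stood apart from its group.

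In rapamycin, 2054 probe sets (8.86%) were called higher and 1836 (7.92%) lower in ELT3-245, together 3890 of 23188 (16.8%). Among the 15041 named genes, 1498 (9.96%) were higher and 1336 (8.88%) lower, 18.8% in all. The called differences ranged widely in size. At least 2-fold were 878 of the higher and 903 of the lower probe sets, at least 4-fold 302 and 305, and at least 32-fold 43 and 32. The median difference over all probe sets was -0.02. The 3 arrays of one line lay wholly above or below the 3 of the other for 3847 of the called probe sets, and for 8743 of all probe sets (37.7%). An exact permutation test of 3 arrays against 3 cannot give a two-sided p under 0.1, so the calls rest on limma. The deposited values carry no detection call. In 1112 of the 3890 called probe sets the mean of the dimmer line lay below all 12 array medians (6.69 to 6.82), where a transcript may not be above background, so that such a difference can fall short of the true one and gives no firm order among these genes.

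Most of these differences were also there without the drug. In DMSO, on arrays that share nothing with the rapamycin arrays, 3445 probe sets (14.9%) were called, 7.3% higher and 7.56% lower, and 2223 were called in the same direction in both treatments, which is 57.1% of the calls in rapamycin and 64.5% of those in DMSO. Of these, 1073 were higher and 1150 lower in ELT3-245. A further 1652 probe sets were called in rapamycin and not in DMSO, which by itself does not show that the line difference changed. The change of the line difference between treatments, tested as an interaction term, was called for 981 probe sets (4.23%), 503 in the positive and 478 in the negative direction (2.17% and 2.06%). It was called for 318 of the 1652, where 200 were higher and 118 lower in ELT3-245. The interaction uses the same rapamycin arrays as the line difference and is the less steady of the 2 measures, with 534 calls when ELT3 DMSO replicate 2 was left out. The scatter plot of the line differences in both treatments marks several of the genes that follow.

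**Figure D1:**
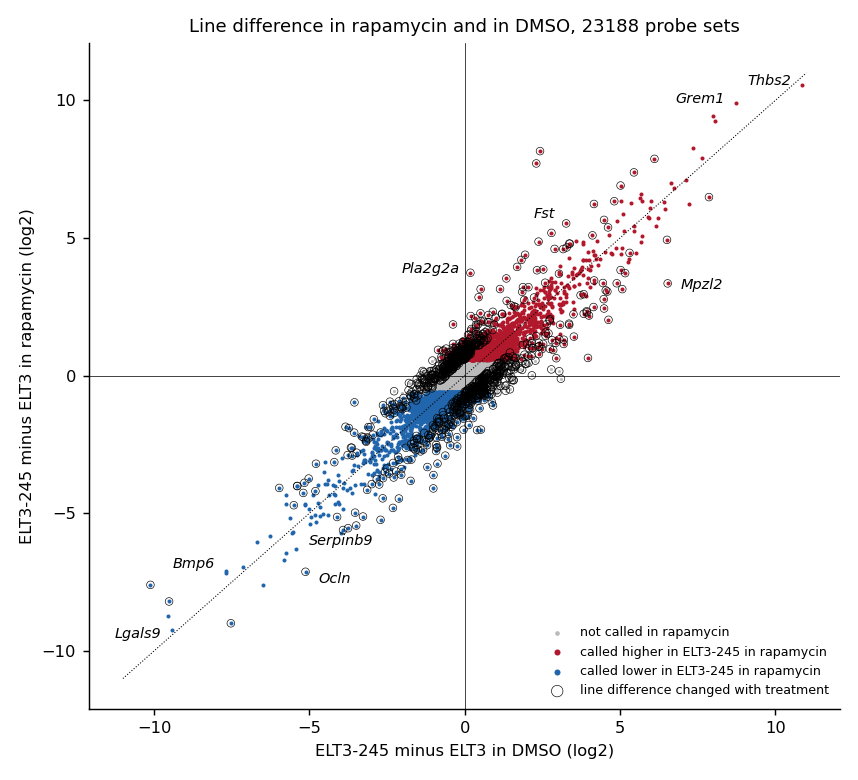
Each point is a probe set, placed by its log2 difference (ELT3-245 minus ELT3) in rapamycin on the vertical axis and in DMSO on the horizontal axis, with probe sets called in rapamycin in colour and those whose line difference changed with treatment ringed. Called points spread along the diagonal, as for Thbs2 (10.56 in rapamycin and 10.87 in DMSO), while Pla2g2a (3.74 and 0.19) lies near 0 on the DMSO axis.

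The 12 genes with the largest positive differences were Thbs2, Grem1, Tnn, Penk, Gdf10, Slc6a4, Mfap4, Osr1, Thbs4, Lect2, Csgalnact1 and Dlx3, and all 12 were also called higher in DMSO. In 8 of the 12, Grem1 among them, the ELT3 mean lay below the array medians. Several encode proteins of the matrix or secreted signals. Thbs2 encodes thrombospondin 2, a matricellular protein that restrains the growth of blood vessels. Its log2 signals were 17.48, 17.32 and 17.37 in the ELT3-245 arrays with rapamycin, against 6.87, 7.24 and 6.38 in rapamycin-treated ELT3, where the gene lay near the median of all probe sets. The difference was 10.56 (standard error 0.23, adjusted p = 3.56e-11). Grem1 encodes gremlin 1, a secreted antagonist of bone morphogenetic proteins. It had 15.09, 15.03 and 15.07 in ELT3-245 and 4.97, 5.92 and 4.55 in ELT3, a difference of 9.92 (standard error 0.27, adjusted p = 8.94e-11). Penk, the precursor of the enkephalin opioid peptides, had 16.32, 16.27 and 16.37 in ELT3-245 and 6.82, 7.22 and 7.15 in ELT3, a difference of 9.26 (adjusted p = 4.99e-11). In each of these genes the spread within a line was small beside the gap between the lines. Tnn, which encodes tenascin N, differed by 9.43, and Gdf10, which encodes a ligand of the TGF-beta family, by 8.27. Slc6a4 encodes the serotonin transporter of serotonergic neurons and platelets, and differed by 7.92 (ELT3-245 13.78 ± 0.12, ELT3 5.85 ± 0.15, SD, n = 3 each). Osr1 and Dlx3, which encode transcription factors of embryonic development, differed by 7.10 and 6.46. Mfap4, a microfibril-associated glycoprotein, differed by 7.39, Thbs4 by 7.01, the secreted protein gene Lect2 by 6.91, and Csgalnact1, an enzyme of chondroitin sulfate synthesis, by 6.84.

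The 12 genes with the largest negative differences were Lgals9, Vsnl1, LOC100910973, A2m, Parm1, Ocln, Bmp6, Fam110c, Tnnt2, Wfdc1, Timd2 and Vnn1, again all called in DMSO too. In 7 of the 12, Lgals9 among them, the ELT3-245 mean lay below the array medians. Lgals9 encodes galectin 9, a lectin that binds immune receptors. It had log2 signals of 5.78, 6.37 and 6.05 in the ELT3-245 arrays with rapamycin, against 15.57, 15.38 and 15.0 in rapamycin-treated ELT3, a difference of -9.25 (standard error 0.23, adjusted p = 4.99e-11). Vsnl1, a neuronal calcium sensor, had 7.01, 7.20 and 6.76 in ELT3-245 and 15.63, 15.69 and 15.88 in ELT3, a difference of -8.74 (adjusted p = 4.56e-11). A2m encodes the broad protease inhibitor alpha-2-macroglobulin and differed by -7.62, and Tnnt2, the cardiac form of troponin T, by -6.71. Vnn1 encodes pantetheinase, an enzyme of coenzyme A turnover, and differed by -6.06 (8.06 ± 0.42 in ELT3-245 and 14.12 ± 0.18 in ELT3, SD, n = 3 each). Parm1, Fam110c, Wfdc1 and Timd2 differed by -7.16, -6.96, -6.42 and -6.29, and LOC100910973, which has a locus name only, by -8.20. Bmp6 and Ocln are described with their families below. The plot of single arrays shows the largest of these differences. All were picked among called genes whose arrays did not overlap between the lines, so their separation follows from that choice.

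**Figure D2:**
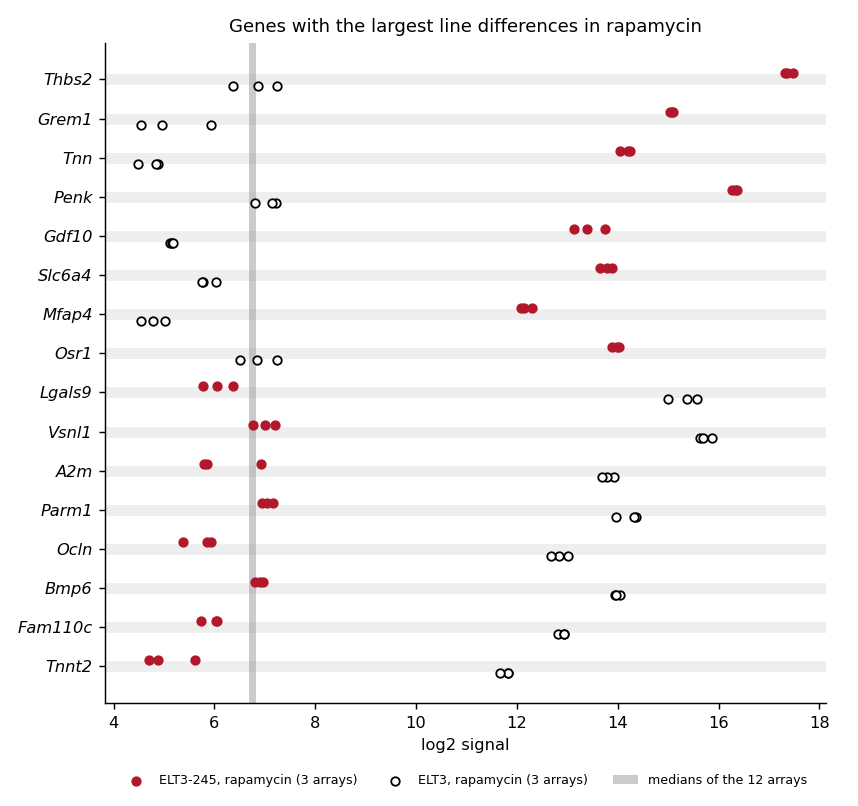
Log2 signal of each of the 6 rapamycin arrays for the 8 highest and 8 lowest of the genes with the largest differences, LOC100910973 left out. ELT3-245 is shown as filled circles above ELT3 as open circles in each row. Thbs2 lies at 17.39 ± 0.08 in ELT3-245 and 6.83 ± 0.43 in ELT3, and Lgals9 at 6.07 ± 0.30 in ELT3-245 and 15.32 ± 0.29 in ELT3. The 3 arrays of a line stay apart from those of the other in each row because only such genes were picked.

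Markers of the tissue and of other cell types were read in the same arrays. Both lines gave bright signals for the smooth muscle genes Acta2, Tagln, Des and Smtn, while Myh11, the myosin of mature smooth muscle, stayed below the array medians in both (4.91 ± 0.29 in ELT3-245 and 4.49 ± 0.31 in ELT3). Of 11 smooth muscle markers, 1 was higher and 4 lower in rapamycin-treated ELT3-245, while 6 differences lay above 0 (median 0.17). Des and Smtn were higher by less than 1.5-fold (limma adjusted p = 0.00936 and 0.00434). The mean of the 11 per array was 10.4 to 10.5 in ELT3-245 and 10.8 to 10.9 in ELT3. In DMSO 4 were higher and 4 lower, and the mean was 9.87 to 10.0 in ELT3-245 and 9.80 to 9.94 in ELT3. Acta2, smooth muscle alpha-actin, had 14.99, 14.97 and 14.99 in ELT3-245 and 16.52, 16.64 and 16.82 in ELT3 (difference -1.67, adjusted p = 2.11e-07). Tagln, which encodes the actin-binding protein SM22, differed by -2.28, Actg2, enteric smooth muscle actin, by -2.73, Cnn1 (calponin) by -0.87, and Synpo2, an actin-bundling protein, by 1.19. In the wider list of 24 smooth muscle genes and targets of serum response factor, 11 were lower and 1 higher (median -0.46), among them Tpm1, which encodes tropomyosin (difference -2.40). Of the receptors that mark uterine muscle, Pgr, the progesterone receptor, was lower (difference -1.33, adjusted p = 2.22e-05), and Esr1 had 7.13 ± 0.10 in ELT3-245 and 7.10 ± 0.27 in ELT3 (difference 0.03, adjusted p = 0.926). Nr3c1, the glucocorticoid receptor, was higher by 0.76.

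Fibroblast markers were more often higher. Of 10 measured, 6 were called higher and 0 lower in ELT3-245 by limma, and 0 lower by the unequal-variance test. At an unadjusted p under 0.05, 3 were lower. Among these, Col1a1 and Mfap5 also had a limma adjusted p under 0.05 (0.00247 and 0.0126) and missed only the 1.5-fold threshold. Mfap5 was called lower in DMSO (-1.17). Their mean per array was 13.0 in ELT3-245 and 10.8 to 11.1 in ELT3. Dcn and Lum, small proteoglycans that bind collagen fibrils, differed by 5.74 and 6.07, Fap, a surface protease of activated fibroblasts, by 5.27, and Pdgfra, a receptor of mesenchymal cells, by 2.96. Col1a1 was bright in both lines (15.37 ± 0.11 in ELT3-245 and 15.87 ± 0.06 in ELT3, difference -0.49). Of 9 epithelial markers, Krt8 and Krt14 were lower, and 0 were higher by limma, by the unequal-variance test or at an unadjusted p under 0.05. Epcam, Krt18, Krt19, Cdh1, Cldn3, Cldn4 and Cldn7 lay below the array medians in both lines. Of 9 leukocyte markers, Cd3e was higher and Cd14 lower. Cd3e, a chain of the T cell receptor complex, had 11.84, 11.51 and 11.49 in ELT3-245 and 5.05, 5.85 and 5.67 in ELT3, while the general leukocyte marker Ptprc lay at 4.06 ± 0.27 in ELT3-245 and 4.10 ± 0.25 in ELT3. Of 8 endothelial markers, the VEGF receptor gene Kdr was higher (11.52, 11.71 and 11.78 in ELT3-245, 5.48, 5.07 and 5.71 in ELT3) and Tek and Pecam1 were lower, while Cdh5 and Vwf, which define endothelium, lay at 4.52 ± 0.27 and 3.55 ± 0.06 in ELT3-245 and at 4.50 ± 0.43 and 3.72 ± 0.24 in ELT3. In a culture, fewer cells with a transcript and less of it in each cell cannot be told apart. Of 23 HOX genes measured, 3 were called (13.0%, beside 18.8% of all named genes). These were of the A cluster and higher: Hoxa13 (difference 1.32), Hoxa7 (1.03) and Hoxa6 (0.61). No HOX gene was called lower, 0 of 23 by limma and by the unequal-variance test and 1 at an unadjusted p under 0.05. Hoxa13 alone was left without ELT3 rapamycin replicate 3, where Hoxa7 had an adjusted p of 0.0566 and Hoxa6 a difference of 0.57. Hoxa7 also missed the threshold without ELT3 rapamycin replicate 2 (adjusted p = 0.0511), ELT3-245 rapamycin replicate 2 (0.0572) or 3 (0.0601), and Hoxa6 without ELT3-245 rapamycin replicate 1 (difference 0.55).

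Genes of the pathway that rapamycin acts on were called about as often as all named genes. Of 34 measured genes of mTORC1, mTORC2 and their regulators, 4 were higher and 3 lower (20.6% called, beside 18.8% of all named genes, median 0.02). Tsc2 transcript was measured in both lines, at 10.19, 9.99 and 9.80 in ELT3-245 and 10.71, 10.25 and 10.73 in ELT3. The difference of -0.57 (adjusted p = 0.0435) was under 1.5-fold, and the array does not measure the protein. Tsc1 had 10.01 ± 0.11 in ELT3-245 and 9.96 ± 0.14 in ELT3 (SD, n = 3 each, adjusted p = 0.817), and Fkbp1a, the target of the drug, 14.34 ± 0.23 in ELT3-245 and 14.47 ± 0.19 in ELT3 (adjusted p = 0.553). Neither Rptor, which encodes the mTORC1 scaffold raptor (difference 0.04), nor the substrate genes Rps6kb1 and Eif4ebp1 (0.13 and 0.26) passed the test. Mtor itself was higher in ELT3-245, with 10.36, 10.67 and 10.56 against 10.0, 9.86 and 9.82 in ELT3 (difference 0.64, 1.55-fold, adjusted p = 0.0055). The difference fell under 1.5-fold without ELT3-245 rapamycin replicate 2 and after quantile normalization (0.57 in each case). Eif4e, the cap-binding factor of translation, was higher by 0.82, Eif4ebp2, a repressor of it, by 1.21, and Prr5, a subunit of mTORC2, by 2.05. Rheb was lower by 1.55-fold (difference -0.63), as were Fnip2, a partner of folliculin (-0.87), and Sesn3, a sestrin that restrains mTORC1 (-1.45). The 6 arrays of the lines did not overlap for any of these 7 called genes. The same held for 3847 of all 3890 called probe sets, and for 37.7% of all probe sets.

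Of 23 genes of the PI3K and AKT pathway upstream of mTORC1, 3 were higher and 6 lower. This is 39.1% called, beside 18.8% of all named genes. Foxo1, a transcription factor that AKT keeps out of the nucleus, had 11.66, 11.85 and 11.87 in rapamycin-treated ELT3-245 and 8.54, 8.77 and 8.45 in rapamycin-treated ELT3 (difference 3.21, adjusted p = 1.14e-09). Pik3r1, the main regulatory subunit of PI3K, was higher by 1.78 and the kinase gene Akt2 by 0.60. Lower were Pik3cd, a catalytic subunit of PI3K (-2.53), the AKT phosphatase gene Phlpp2 (-1.07) and the regulatory subunit gene Pik3r3 (-0.90). Akt2 lay close to the threshold, with a difference of 0.57 without ELT3 rapamycin replicate 2, 0.56 without replicate 3 and 0.57 without ELT3-245 rapamycin replicate 3.

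Many genes of cell division and of ribosome production were higher in ELT3-245 in rapamycin, while few were called in DMSO. Of 30 measured genes of the cell cycle and DNA replication, 14 were higher in rapamycin (46.7%, beside 9.96% of all named genes, median difference 0.53), and 0 were lower by limma, by the unequal-variance test or at an unadjusted p under 0.05. Among the 16 without a call, 15 of 16 values lay above 0. In DMSO 1 was higher and 1 lower (median 0.01). The interaction, which shares the rapamycin arrays with these calls, was above 0 for 30 of 30 and called for 8. That count fell to 1 without ELT3-245 DMSO replicate 1 or ELT3-245 rapamycin replicate 1, and to between 2 and 5 without each other array except ELT3 rapamycin replicate 1. Aurkb, the Aurora B kinase of chromosome segregation, had 13.27, 13.04 and 13.36 in the ELT3-245 arrays with rapamycin, against 12.26, 12.33 and 11.81 in rapamycin-treated ELT3 (difference 1.09, standard error 0.15, adjusted p = 0.000128). In DMSO it had 13.0 ± 0.12 in ELT3-245 and 12.86 ± 0.09 in ELT3 (SD, n = 3 each), a difference of 0.14 (adjusted p = 0.575). The parental rapamycin arrays were thus the low ones among the 4 groups. Cdc20, an activator of the anaphase-promoting complex, had 12.27, 12.44 and 12.20 in ELT3-245 and 11.27, 11.05 and 10.44 in ELT3 in rapamycin (difference 1.38, adjusted p = 9.02e-05), with ELT3 replicate 3 the lowest. Mcm3, part of the replicative helicase, was higher by 0.80, cyclin B2 (Ccnb2) by 0.77, the sliding clamp gene Pcna by 0.77, and the licensing factor gene Cdt1 by 0.67. Among 14 D cyclins, CDK inhibitors and pocket proteins, 4 were higher and 1 lower (35.7% called, beside 18.8% of all named genes). Cyclin D3 (Ccnd3) was higher by 0.76 and the inhibitor genes Cdkn2c and Cdkn2d by 0.73 and 0.85, while the inhibitor gene Cdkn2b was lower (-0.61). Cdt1 missed the threshold without ELT3 rapamycin replicate 2 (adjusted p = 0.0586) or 3 (0.0522) or ELT3-245 rapamycin replicate 3 (0.0635). Cdkn2b fell under 1.5-fold without ELT3 rapamycin replicate 1 (-0.55) or ELT3-245 rapamycin replicate 2 (-0.52) or 3 (-0.57).

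Of 22 genes of ribosome biogenesis, 13 were higher and 1 lower in rapamycin (59.1% higher, median 0.63). In DMSO 2 were higher and 1 lower (median 0.09), and the interaction was called for 6, all positive. That count was 2 or 3 without any 1 of the 9 arrays other than those of rapamycin-treated ELT3. Nop2, an RNA methyltransferase of the large ribosomal subunit, had 13.32, 13.30 and 13.59 in rapamycin-treated ELT3-245 and 12.58, 12.32 and 11.84 in rapamycin-treated ELT3 (difference 1.16, standard error 0.17, adjusted p = 0.000268). In DMSO the order of the lines was the opposite, with 13.58 ± 0.01 in ELT3-245 and 13.95 ± 0.17 in ELT3 (SD, n = 3 each), without passing the test (adjusted p = 0.157). Nop56, a core protein of the snoRNPs that guide rRNA methylation, was higher by 0.93 in rapamycin (DMSO -0.07), and Dkc1, the pseudouridine synthase dyskerin, by 0.91 (DMSO -0.21). Wdr43 and Rrs1 were higher in both treatments (1.19 and 1.09 in rapamycin). The 1 lower gene, Rrn3, encodes the factor that brings RNA polymerase I to the rRNA genes: it had 12.03, 12.12 and 12.05 in ELT3-245 and 13.0, 13.11 and 13.12 in ELT3 (difference -1.01, adjusted p = 5.63e-06). The plot of these 2 lists sets the values in rapamycin beside those in DMSO.

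**Figure D3:**
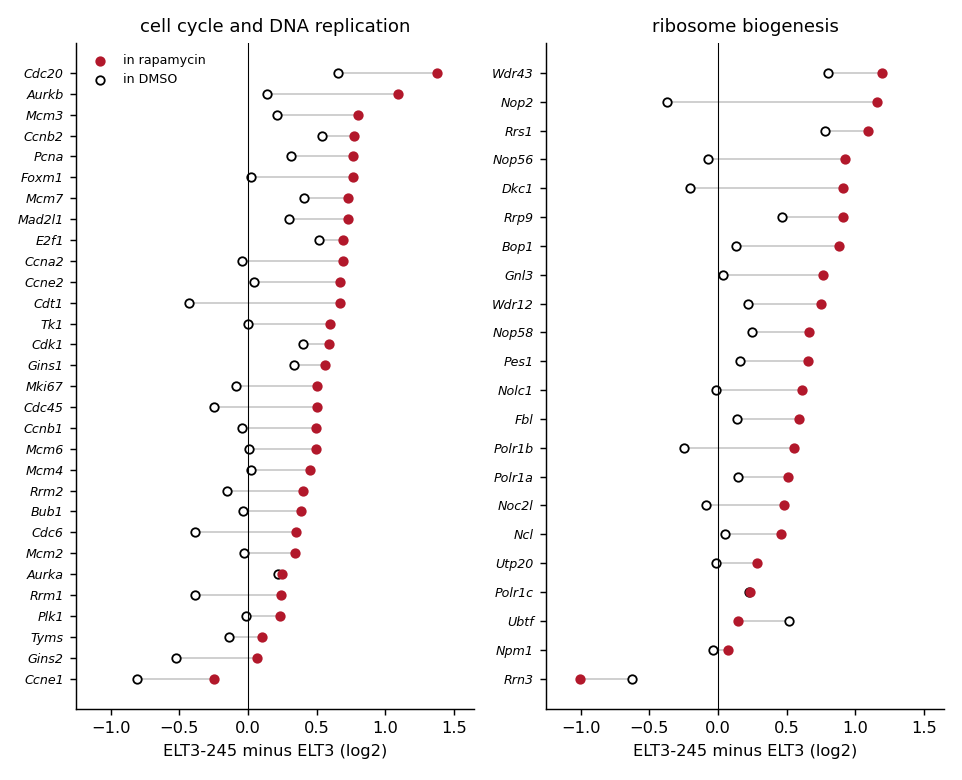
Log2 difference (ELT3-245 minus ELT3) of the 30 cell cycle and 22 ribosome biogenesis genes, filled circles in rapamycin and open circles in DMSO, ordered within each list by the difference in rapamycin. Most filled circles lie above 0 (medians 0.53 and 0.63) and to the right of the open ones (medians 0.01 and 0.09), and Rrn3 is the exception among the ribosome genes.

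Promoters are shown for 2 of these genes because the E-box CACGTG, the letters that Myc and related factors bind, was searched in them. The sequences are those of RefSeq on the build GRCr8, 250 bases before and 50 after an annotated start, with the match in capitals. CACGTG reads the same on both strands and stood in 1826 of 27457 promoters (6.65%). It stood in 5 of the 10 higher ribosome genes that had an entry (Dkc1, Fbl, Gnl3, Nop2 and Pes1), which is a description of few promoters. Fbl fell under 1.5-fold without ELT3 rapamycin replicate 1 (0.50) or ELT3-245 rapamycin replicate 2 (0.57), and Pes1 without ELT3 rapamycin replicate 3 (0.58). Taking the start as position 0, the match begins at position 38 in Nop2 (chr4:159618716-159619015, plus strand) and at -184 in Dkc1 (chrX:157751401-157751700, plus strand).
Nop2: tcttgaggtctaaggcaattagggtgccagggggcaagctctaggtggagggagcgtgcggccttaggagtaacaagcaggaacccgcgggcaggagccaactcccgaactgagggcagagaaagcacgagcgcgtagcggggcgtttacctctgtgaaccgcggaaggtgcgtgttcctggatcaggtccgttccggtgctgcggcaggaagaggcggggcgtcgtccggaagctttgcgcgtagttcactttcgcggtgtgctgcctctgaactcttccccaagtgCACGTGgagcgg
Dkc1: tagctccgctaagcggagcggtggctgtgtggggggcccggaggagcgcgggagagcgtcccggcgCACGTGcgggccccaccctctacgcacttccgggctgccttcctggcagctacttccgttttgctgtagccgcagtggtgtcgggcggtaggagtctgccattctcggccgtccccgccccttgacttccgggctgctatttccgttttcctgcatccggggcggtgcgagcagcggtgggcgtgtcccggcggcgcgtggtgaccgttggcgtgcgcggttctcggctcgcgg

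Genes of the extracellular matrix held several of the largest differences. Of 44 measured collagens, laminins and matrix glycoproteins, 17 were higher and 4 lower (47.7% called), with a list median of 0.01. Fmod (fibromodulin), a proteoglycan of collagen fibrils, had 11.81, 11.74 and 11.97 in ELT3-245 and 5.51, 5.96 and 5.02 in ELT3 (difference 6.34, adjusted p = 3.3e-10). The elastic fibre genes Fbn1 (fibrillin 1) and Eln (elastin) were higher by 5.66 and 4.40, and Col14a1, a collagen that decorates fibrils, by 4.60. Eln had 11.61, 11.58 and 10.82 in rapamycin-treated ELT3-245 and 6.92, 6.95 and 6.95 in rapamycin-treated ELT3, and its difference in DMSO was 1.95. Lower were Tnc (tenascin C), with 6.28, 5.89 and 6.01 in ELT3-245 against 10.18, 10.07 and 10.15 in ELT3 (difference -4.08, adjusted p = 1.47e-07), the laminin chain genes Lamb3 (-3.12) and Lama5 (-2.69) of epithelial basement membranes, and Col8a1 (-2.55). Tnn and Tnc, both tenascins, thus ran in opposite directions.

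Enzymes that cut the matrix and their inhibitors changed in both directions. Of 27 metalloproteinases and TIMPs, 3 were higher and 6 lower (33.3% called, beside 18.8% of all named genes). Adamts9, a protease of proteoglycans, had 12.36, 12.21 and 12.02 in ELT3-245 and 6.47, 6.55 and 5.96 in ELT3 (difference 5.87), while Adamts12 (-2.84), Adamts1 (-2.26) and the inhibitor gene Timp4 (-2.98) were lower. Of 18 genes of plasminogen activation and protease inhibition, 7 were higher and 2 lower. The 2 plasminogen activators ran in opposite directions. Plau, the urokinase, had 12.70, 12.58 and 12.80 in ELT3-245 and 8.52, 8.29 and 7.94 in ELT3 (difference 4.45, adjusted p = 7.91e-10). Plat, the tissue-type activator, had 12.30, 12.17 and 12.18 in ELT3-245 and 15.19, 15.26 and 15.38 in ELT3 (difference -3.06, adjusted p = 3.28e-10). Serpinb2, an inhibitor of both activators, was higher by 6.24, the secreted inhibitor genes Serpina3n and Slpi by 2.93 and 1.99, and Ctsk, the collagen-cutting cathepsin K of osteoclasts, by 3.89.

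Genes of cell junctions were more often lower than higher. Of 40 tight junction genes, 10 were lower and 2 higher (median -0.21), and of 33 cadherins, desmosomal proteins and keratins, 10 were lower and 2 higher (median -0.24), beside 8.88% lower among all named genes. Ocln, which encodes the membrane protein occludin, had 5.86, 5.92 and 5.37 in rapamycin-treated ELT3-245 and 12.84, 13.02 and 12.67 in rapamycin-treated ELT3, and F11r, the gene of the adhesion molecule JAM-A of these junctions, 5.26, 5.67 and 6.84 in ELT3-245 and 11.59, 11.70 and 11.59 in ELT3. Their differences were -7.12 and -5.70 (adjusted p = 1.2e-10 and 8.81e-08). Krt8, a keratin of simple epithelia, had 6.0, 6.42 and 6.13 in ELT3-245 and 11.88, 11.73 and 11.55 in ELT3 (difference -5.54, adjusted p = 7.4e-11), and Krt14, a keratin of basal epithelia, differed by -4.62. In all 4 genes the ELT3-245 arrays lay below the array medians, except replicate 3 for F11r (6.84). Krt18, the usual partner of Krt8, lay below them in both lines (4.35 ± 0.20 in ELT3-245 and 4.33 ± 0.13 in ELT3, SD, n = 3 each). Jam3 and Cldn12 were higher (1.32 and 1.12), as was Ppl (periplakin, 2.28). Dsc2 was the only gene named here whose arrays overlapped between the lines although it was called (5.54, 4.79 and 5.72 in ELT3-245, 4.51, 4.55 and 4.82 in ELT3). It missed the threshold without ELT3 rapamycin replicate 1 or 2 or ELT3-245 rapamycin replicate 1 or 3 (adjusted p = 0.0652, 0.0619, 0.0823 and 0.0876), which left Ppl as the 1 higher gene of its list.

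Promoters of 3 of the lower junction genes are shown with the E-box CAGGTG, the letters that Snail, Slug and ZEB repressors bind, in capitals (CACCTG where it lies on the other strand). It was searched on both strands, and a match cannot overlap one of the other E-box. These letters stood in 5121 of 27457 promoters (18.7%) and in 4 of the 13 lower junction and keratin genes with an entry (30.8%: Ocln, F11r, Krt8 and Jup). The matches begin at -137 and -68 in Ocln (chr2:33441149-33441448, minus strand), at -130 in F11r (chr13:86405979-86406278, plus strand) and at -214 in Krt8 (chr7:135010290-135010589, minus strand).
Ocln: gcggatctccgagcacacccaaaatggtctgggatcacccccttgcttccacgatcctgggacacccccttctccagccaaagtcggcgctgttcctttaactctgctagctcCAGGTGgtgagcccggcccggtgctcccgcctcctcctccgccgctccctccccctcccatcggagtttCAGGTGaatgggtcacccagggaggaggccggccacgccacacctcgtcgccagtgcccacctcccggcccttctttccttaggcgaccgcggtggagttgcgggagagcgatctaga
F11r: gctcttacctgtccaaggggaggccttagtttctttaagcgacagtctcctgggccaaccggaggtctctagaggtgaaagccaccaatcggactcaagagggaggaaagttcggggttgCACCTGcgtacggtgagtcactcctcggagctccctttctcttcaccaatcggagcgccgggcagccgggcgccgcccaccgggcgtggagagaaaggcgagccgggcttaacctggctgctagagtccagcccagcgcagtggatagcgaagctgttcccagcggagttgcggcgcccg
Krt8: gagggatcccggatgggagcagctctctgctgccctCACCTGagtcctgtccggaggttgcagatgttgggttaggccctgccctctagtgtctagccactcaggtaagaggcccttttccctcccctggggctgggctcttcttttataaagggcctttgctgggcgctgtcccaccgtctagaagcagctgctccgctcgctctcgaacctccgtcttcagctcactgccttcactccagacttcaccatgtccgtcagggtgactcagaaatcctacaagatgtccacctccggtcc

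Of 16 transcription factors and markers of the mesenchymal state, 7 were higher and 2 lower (43.8% higher, median 0.27). Twist2 and Prrx1, transcription factors of mesenchyme, were higher by 1.75 and 1.42 and Prrx1 was among the bright genes of both lines (16.12 ± 0.03 in ELT3-245 and 14.70 ± 0.15 in ELT3, SD, n = 3 each). Foxc2, another factor linked to mesenchymal change, was lower (-1.72). The genes named here are not the extremes of the list, which ran from -2.21 to 2.64. Of 19 integrins, 2 were higher and 7 lower (36.8% lower). Itga8, the integrin chain that binds nephronectin and is typical of smooth muscle, had 7.02, 6.93 and 6.97 in ELT3-245 and 12.13, 12.25 and 11.89 in ELT3 (difference -5.12, adjusted p = 1.96e-10). Itgb3 was lower by 5.1-fold (-2.35) and Itga5, the fibronectin receptor chain, higher by 1.73-fold (0.79).

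Ligands and antagonists of the TGF-beta and BMP family were among the genes with the largest differences. Of 52 measured members, 16 were higher and 6 lower (30.8% higher, median 0.17). The antagonist genes Grem1 and Fst were higher, Fst (follistatin, which binds activins) with 10.60, 10.52 and 10.67 in ELT3-245 and 4.93, 5.27 and 4.99 in ELT3 (difference 5.53, adjusted p = 2.36e-10). The ligand gene Bmp6 was lower, with 6.97, 6.80 and 6.90 in ELT3-245 and 14.05, 13.95 and 13.98 in ELT3 (difference -7.10, adjusted p = 5.26e-11). Inhba, which encodes the activin A subunit, was lower (difference -2.21), as were Tgfb3 (-2.80) and Tgfb2 (-1.85), and Ltbp3, which holds latent TGF-beta in the matrix, was higher by 3.31.

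Of 52 genes of PDGF, FGF, IGF, HGF and VEGF signalling, 11 were higher and 7 lower (34.6% called, beside 18.8% of all named genes). Vegfd, a ligand of lymphatic vessel growth, had 12.66, 12.59 and 12.59 in ELT3-245 and 8.85, 8.27 and 8.29 in ELT3 (difference 4.14, adjusted p = 1.68e-08), while its relative Vegfc was lower (-2.42). Pdgfc, a ligand of the receptor Pdgfra, was higher by 3.95 and Fgf1 by 3.22, and Igfbp4, a binding protein of insulin-like growth factors, was lower (-3.70). Of 32 ErbB receptors, ligands and ERK feedback genes, 11 were higher and 5 lower (34.4% higher). The feedback inhibitor gene Errfi1 was higher by 2.83 (14.66 ± 0.13 in ELT3-245 and 11.83 ± 0.20 in ELT3, SD, n = 3 each), as were Spred2 (1.45), Etv5, a transcription factor downstream of ERK (1.42), and the EGF receptor ligand gene Areg (1.85), which had 7.08, 7.43 and 6.90 in ELT3-245 and 5.27, 5.59 and 5.01 in ELT3. The kinase genes Map2k1 (-1.44) and Mapk3 (-1.20) were lower. The count of lower members was 3 without ELT3 rapamycin replicate 1 or ELT3-245 rapamycin replicate 3, and 8 without ELT3 rapamycin replicate 2.

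Of 54 Wnt pathway genes 8 were higher and 11 lower (35.2% called, beside 18.8% of all named genes). Of 20 Notch pathway genes, 2 were higher (1 without ELT3 rapamycin replicate 2 or ELT3-245 rapamycin replicate 2) and 1 lower (15.0% called). Hey2, a Notch target, was higher (3.90), and Hes1, another, was lower (-1.59). Of 18 YAP targets and partners, 1 was higher and 4 lower (22.2% lower, median -0.22), and in DMSO 1 was higher and 8 lower. The 1 higher call was lost without ELT3 rapamycin replicate 1 or ELT3-245 rapamycin replicate 3. The lower ones included Cavin2 (-2.20) and Ccn1 (-1.01).

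Immediate early genes, which answer growth factors within minutes, included 9 higher and 4 lower of 29 (31.0% higher, median 0.30). The orphan nuclear receptor gene Nr4a3 was higher by 3.20 and Ier3 lower by 3.87-fold (-1.95). The gene furthest up in this list was Junb, a subunit of AP-1, with 14.85, 14.77 and 15.29 in ELT3-245 and 11.17, 11.67 and 10.76 in ELT3 (difference 3.77, standard error 0.22, adjusted p = 6.68e-08). Junb and Ier2 (2.60) lie on chromosome 19, in a stretch where most genes were higher.

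On chromosome 19, 12.4% of probe sets were higher and 16.9% lower, while on the other 20 chromosomes 6.66% to 12.4% were higher and 6.09% to 11.8% lower. In the gene order of RefSeq, 33 measured named genes in a row, beginning with Man2b1 and ending with Dcaf15, held 27 higher genes, and the same 27 were higher in DMSO. In rapamycin 0 of the 33 were lower by limma, by the unequal-variance test or at an unadjusted p under 0.05. The median difference of the 33 was 1.59 in rapamycin and 1.5 in DMSO. Rnaseh2a, a subunit of the ribonuclease that removes RNA from DNA, had 13.83, 13.77 and 13.67 in ELT3-245 and 10.11, 10.20 and 9.85 in ELT3 (difference 3.71, adjusted p = 3.37e-10). Farsa, a subunit of phenylalanyl-tRNA synthetase, differed by 3.76, Gcdh, an enzyme of lysine breakdown, by 3.27, the peroxidase gene Prdx2 by 2.09 and the lysosomal mannosidase gene Man2b1 by 2.33. The genes named here differ in function, and the functions of the whole stretch were not examined. Of the 6 genes of the stretch that were not called, 5 had a mean signal below the median of all probe sets, and the sixth, Calr (calreticulin), was brighter than 99.9% of them (difference 0.53, adjusted p = 0.000807).

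The genes that follow on the same chromosome ran the other way. Of 247 named genes after Dcaf15, 66 were lower (26.7%) and 8 higher (5 without ELT3-245 rapamycin replicate 3), 197 of 247 differences lay below 0, and the median was -0.29 (-0.36 in DMSO). Of the 97 genes before Man2b1, 10 were higher and 8 lower (median -0.10). A running median over 21 neighbouring genes with a mean signal above the median of all probe sets reached 2.52 within the stretch and -0.68 after it, while on the other 20 chromosomes it stayed between -0.58 and 0.60. The stretch was chosen after the values were seen and carries no test. DNA was not measured.

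Genes of prostaglandin synthesis differed in both directions. Of 20 genes of prostaglandin synthesis and reception, 7 were higher and 3 lower (35% higher). Ptgs2, the inducible cyclooxygenase that makes the common precursor, had 11.77, 11.90 and 11.99 in rapamycin-treated ELT3-245 and 16.17, 16.24 and 16.10 in rapamycin-treated ELT3 (difference -4.28, adjusted p = 4.99e-11). Ptges, which turns that precursor into prostaglandin E2, had 11.46, 11.27 and 10.81 in ELT3-245 and 6.31, 6.77 and 6.83 in ELT3 (difference 4.55, adjusted p = 3.36e-08). Hpgd, which breaks prostaglandin E2 down, was also higher (4.19), as was the receptor gene Ptger4 (1.88). The phospholipase genes that free arachidonic acid ran in opposite directions, Pla2g4a lower (-1.37) and the secreted form Pla2g2a higher. Pla2g2a had 8.77, 8.46 and 8.99 in ELT3-245 and 5.35, 4.79 and 4.85 in ELT3 in rapamycin, and in DMSO 4.50 ± 0.42 in ELT3-245 and 4.31 ± 0.18 in ELT3 (SD, n = 3 each).

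Of 40 chemokines, cytokines and receptors, 10 were higher and 10 lower. The oncostatin M receptor gene Osmr was higher by 3.11 and the chemokine gene Cxcl1 by 1.78, while Ackr3, a scavenger receptor of the chemokine CXCL12, was lower by 16.7-fold (-4.07). Genes of the interferon response and antigen presentation were more often lower than higher, 14 against 6 of 31 (45.2% lower, median -0.44), and in DMSO 16 were lower and 5 higher. Mx1, an antiviral GTPase, had 5.03, 4.84 and 5.06 in ELT3-245 and 7.63, 7.72 and 7.67 in ELT3, and Oas1a, which makes the activator of RNase L, 5.14, 4.80 and 5.25 in ELT3-245 and 7.47, 7.68 and 8.09 in ELT3 (differences -2.70 and -2.69). In ELT3-245 both lay below the array medians. Usp18, which removes ISG15, was lower (-1.89), and the membrane protein genes Ifitm1 (2.97) and Ifitm3 (1.06) were higher. Ifitm1, Ifitm3 and Oas1a belong to families of close copies, and their single values are uncertain.

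Axon guidance families held more lower than higher genes. Of 48 ephrins, semaphorins, netrins, SLITs and their receptors, 13 were lower and 4 higher (27.1% lower, median -0.21). The secreted semaphorin genes Sema3d (-4.26) and Sema3a (-2.36) were lower, and the transmembrane semaphorin gene Sema6b was higher by 3.46. Sema3d was bright in the parent, with 11.33, 11.28 and 11.26 in ELT3-245 and 15.60, 15.53 and 15.52 in ELT3.

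The bar plot of 35 gene lists gives the share of members called in each direction.

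**Figure D4:**
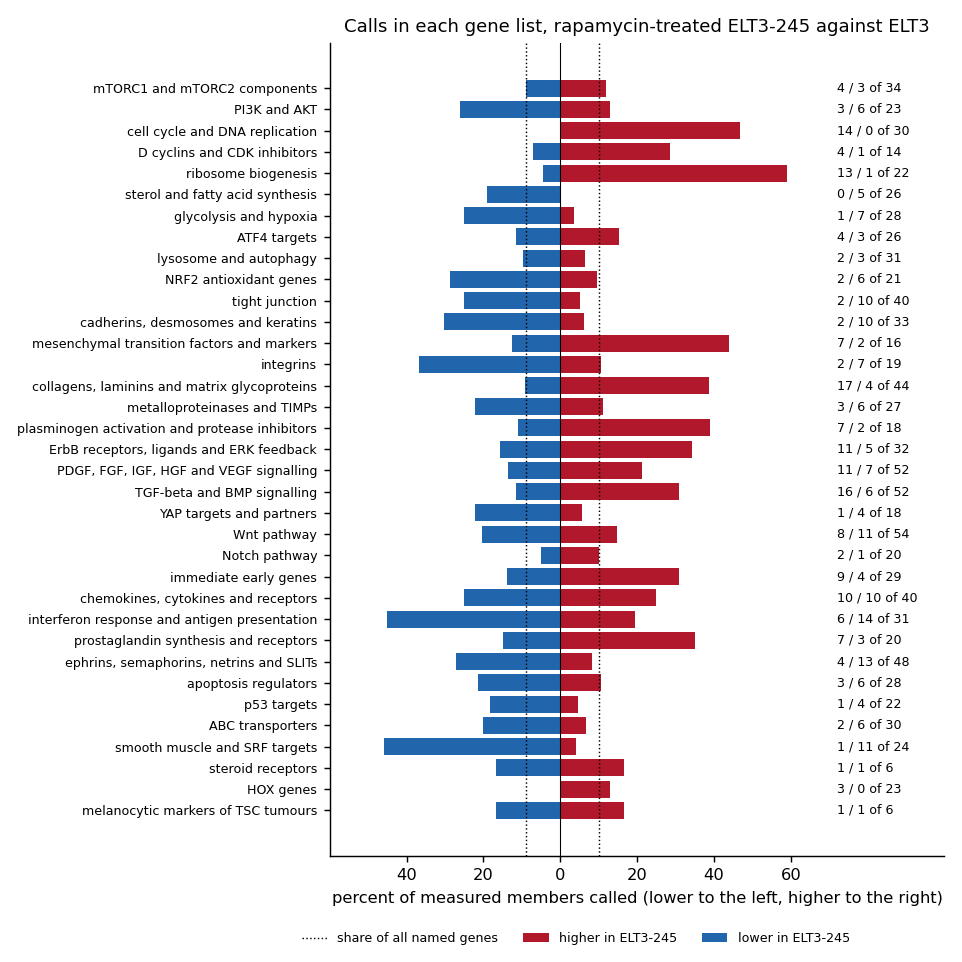
Percent of the measured members of each gene list called in rapamycin-treated ELT3-245 against ELT3, higher to the right and lower to the left, with the counts at the right edge and the shares of all named genes (9.96% higher, 8.88% lower) as dotted lines. Ribosome biogenesis (59.1% higher) and the cell cycle (46.7% higher) reach furthest right, and smooth muscle genes (11 of 24 lower) and the interferon response (45.2% lower) furthest left.

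Of the metabolic lists, those of glycolysis, sterol synthesis and NRF2 targets held more lower than higher calls. Of 28 genes of glycolysis and hypoxia, 7 were lower and 1 higher (28.6% called, beside 18.8% of all named genes, median -0.13). The lower ones included Egln3, an oxygen-sensing prolyl hydroxylase, with 8.84, 8.29 and 8.42 in ELT3-245 and 12.65, 12.78 and 12.55 in ELT3 (difference -4.15, adjusted p = 1.45e-09), Car9, the hypoxia-induced carbonic anhydrase (-2.88), and the lactate exporter gene Slc16a3 (-1.51). Of 26 sterol and fatty acid synthesis genes, 5 were lower (19.2% called, beside 18.8% of all named genes), each by less than 2-fold. The largest difference was that of the desaturase gene Fads2 (-0.79). None was called higher, 0 of 26 by limma and by the unequal-variance test. At an unadjusted p under 0.05, 4 were higher, and 1 had an adjusted p under 0.05 below 1.5-fold. Without ELT3 rapamycin replicate 1, 1 was called higher. Of 26 ATF4 targets, 4 were higher and 3 lower (26.9% called). The hormone gene Stc2 (stanniocalcin 2) was higher by 3.86 and the serine synthesis gene Phgdh by 1.43, and the lipoprotein receptor gene Vldlr was lower (-3.76). Of 21 NRF2 antioxidant genes, 6 were lower and 2 higher (28.6% lower, median -0.40), among them the glutathione transferase gene Gsta4 (-3.41), Hmox1, which breaks down haem (-1.40), and Nqo1 (-1.33), with the aldehyde dehydrogenase gene Aldh3a1 higher (2.75). Of 31 lysosome and autophagy genes, 2 were higher and 3 lower (16.1% called, median -0.21). Gpnmb, a glycoprotein of melanosomes and lysosomes that marks TSC tumours, was lower by 2.06-fold (-1.04). Of 6 measured melanocytic markers of TSC tumours it was the 1 lower gene, and Ctsk (3.89) was the 1 higher.

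Of 28 regulators of apoptosis, 3 were higher and 6 lower (32.1% called, beside 18.8% of all named genes). Bcl2, the founding inhibitor of apoptosis, was lower, with 6.42, 6.66 and 5.78 in ELT3-245 and 9.56, 9.79 and 9.42 in ELT3 (difference -3.30, adjusted p = 1.93e-06). Bcl2l11, which encodes the pro-apoptotic protein BIM, was higher, with 8.03, 7.78 and 7.79 in ELT3-245 and 5.93, 6.05 and 5.19 in ELT3 (difference 2.14, adjusted p = 2.71e-05). In the dimmer line each lay below the array medians. They had the lowest and the highest difference of the list, and its other called members are not described here. Of 22 p53 targets, 4 were lower and 1 higher (22.7% called, beside 18.8% of all named genes). Among 30 ABC transporters, 2 were higher and 6 lower (26.7% called). The 2 rodent genes for the drug efflux pump P-glycoprotein differed in direction. Abcb1b was higher by 4.62-fold (2.21, adjusted p = 2.16e-06), and Abcb1a was lower by 1.6-fold (-0.68, adjusted p = 0.0112). They are close copies of each other, which leaves both values uncertain. Without ELT3 rapamycin replicate 1 Abcb1a fell under 1.5-fold (-0.55) and 3 transporters in place of 6 were called lower.

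The line difference changed most with treatment in a few genes. Among genes called in rapamycin, the most positive interactions after Pla2g2a were those of Cilp, a matrix protein of cartilage (difference 3.15 in rapamycin and 0.52 in DMSO), the antiviral gene Oasl (-0.97 and -3.55, so less far below 0 in rapamycin), the urea transporter gene Slc14a1 (4.87 and 2.38) and Eln. The vasopressin receptor gene Avpr1a, with 14.20, 14.21 and 14.35 in rapamycin-treated ELT3-245 and 8.92, 8.78 and 9.48 in rapamycin-treated ELT3, differed by 5.19 in rapamycin and 2.80 in DMSO, and the thyrotropin receptor gene Tshr by 4.21 and 1.83. Among the most negative interactions were those of Car12, a carbonic anhydrase (0.65 in rapamycin, which lost its call without any 1 of 4 arrays, and 3.97 in DMSO), the adhesion molecule gene Mpzl2 (3.35 and 6.54), Serpinb9, an inhibitor of granzyme B (-5.23 and -2.71), and Fbxo32, the ubiquitin ligase atrogin-1 of muscle wasting (-4.46 and -2.11). Gem, a small GTPase, and Chn2, a GTPase-activating protein, were lower in rapamycin (-1.97 and -1.96) and without a call in DMSO (0.40 and 0.53).

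Only 15 probe sets were called in opposite directions in the 2 treatments, 11 of them with a gene symbol. The integrin chain gene Itga1, a receptor of collagen, was lower in rapamycin, with 7.62, 7.50 and 7.64 in ELT3-245 and 8.84, 8.40 and 8.75 in ELT3 (difference -1.08, adjusted p = 3.17e-05), and higher in DMSO (difference 0.91, adjusted p = 0.000142). Sfrp4, a secreted Wnt antagonist, behaved likewise (-0.97 in rapamycin and 0.88 in DMSO). Irf7, the interferon regulatory factor, was higher in rapamycin (0.94) and lower in DMSO (-0.85), as was the mitochondrial dehydrogenase gene Aldh4a1 (0.89 and -0.71).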

How the data were processed

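RNA of each culture was hybridised to 1 rat Clariom S array. The authors corrected background, normalized between arrays and summarised probe sets by RMA, and deposited log2 values. The software version and the genome build behind the array annotation are not given in the sources used here. RMA is relative: it cannot show a change shared by all genes. The 4 group means were fitted over all 12 arrays in 1 model with limma 3.58.1 (R 4.3.3), with contrasts for the lines in rapamycin, the lines in DMSO and their interaction, and the steps were tested on simulated data. Where 10 symbols had more than 1 probe set, the brightest was kept, and 8135 probe sets without a symbol entered the fit unnamed. Named are the 12 highest and 12 lowest called genes whose arrays did not overlap, up to 4 called members of each list and direction, parts of the rapamycin pathway (Rictor and Deptor had no named probe set), the 10 strongest interactions each way, up to 6 genes called in opposite directions, and marker genes; Abcb1a, Calr, Cdt1, Col14a1, Dcaf15, Dkc1, Farsa, Fbl, Fbn1, Gcdh, Gnl3, Jup, Man2b1, Pcna, Pes1, Prdx2 and Rnaseh2a were chosen after their values were seen. The members and lists were chosen with earlier results of these data known. No value columns were left unmatched. Alternatives covered normalization, moderation, weights, thresholds, dim probe sets, single arrays and the replicate block.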

Additional observations from a re-analysis of the deposited data

Results flagged for a closer look

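Of the genes named above, 64 had a line difference that itself differed between the 2 treatments. It was tested as the interaction of line and treatment in limma (adjusted p under 0.05 and at least 1.5-fold). Among all probe sets 4.23% had such a call. The 64 cannot be set against that share. The 10 strongest interactions each way and the genes called in opposite directions were named because of these values. The values below are the log2 difference between ELT3-245 and ELT3 in rapamycin minus that in DMSO. Of the 64, 48 kept the call without each array in turn, and 16 lost it without 1 or more.

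The interaction was positive for genes of cell division and ribosome production: Aurkb (0.95), Cdt1 (1.10), Cdkn2d (1.04), Nop2 (1.53), Nop56 (1.0), Gnl3 (0.72) and Dkc1 (1.12). It was also positive for matrix genes, namely Cilp (2.63), Eln (2.45), Mfap4 (1.94), Tnc (1.89), Fmod (1.52), Col14a1 (1.43) and Fbn1 (1.17). For Tnc, which was lower in ELT3-245 in both treatments (-4.08 in rapamycin and -5.97 in DMSO), a positive value means a smaller gap in rapamycin. Among ligands, receptors and their antagonists it was positive for Avpr1a (2.39), Tshr (2.38), Fst (2.26), Pdgfc (2.26), Areg (1.48), Cxcl1 (1.41), Fgf1 (1.34), Stc2 (1.33), Inhba (1.10), Sema3d (0.94), Tgfb3 (0.68) and the secreted protein gene Lect2 (1.89). Pla2g2a (3.55) had the most positive value of the 64, followed by Cilp and Oasl (2.58). The remaining positive ones were Slc14a1 (2.49), Serpinb2 (2.08), Irf7 (1.79), Aldh4a1 (1.60), LOC100910973 (1.31), Abcb1a (0.94), Car9 (0.88), Aldh3a1 (0.83), Tagln (0.81) and Rnaseh2a (0.67).

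The interaction was negative for the smooth muscle and integrin genes Actg2 (-1.82), Synpo2 (-1.74), Acta2 (-1.02), Itga1 (-2.0) and Itga8 (-1.84), in contrast to Tagln. It was negative for the junction and adhesion genes Mpzl2 (-3.18), Ocln (-2.0) and Krt8 (-1.79), and for the protease and inhibitor genes Serpinb9 (-2.53), Plat (-1.23), Adamts1 (-1.11) and Serpina3n (-0.81). Among genes of signalling and growth control it was negative for Chn2 (-2.48), Gem (-2.37), Sfrp4 (-1.85), Sesn3 (-1.55), Igfbp4 (-1.41), Pik3r3 (-1.33), Cdkn2b (-0.88), Pdgfra (-0.87) and Mapk3 (-0.68). Car12 had the most negative value (-3.33), and Fbxo32 (-2.35), Gpnmb (-1.23), Egln3 (-1.01) and Vldlr (-0.93) were negative as well.

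The calls that were lost with 1 array left out were those of Rnaseh2a (whichever of the 12 arrays was left out), Gnl3 (11 arrays), Abcb1a (10), Cdt1, Fbn1 and Serpina3n (9 each), Areg and Egln3 (8 each), Aldh3a1 and Col14a1 (7 each), Aurkb and Dkc1 (6 each), Cdkn2b (5), Mapk3 (4), Tgfb3 (3) and Car9 (1). Their adjusted p then ranged between 0.05 and 0.114.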

How the results depend on the processing

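No called line difference or called interaction of a named gene changed its direction under any alternative. Only another normalization, array weights or a left-out array of the groups compared alter the log2 difference itself. The other alternatives could not have reversed it. The 2054 higher and 1836 lower probe sets became 878 and 903 at a fold change of 2, 730 and 792 under limma's treat test against a 1.5-fold change, and 867 and 904 under a per-gene unequal-variance test. Without a fold threshold 3127 probe sets were higher. The 2223 probe sets called in the same direction in both treatments became 1227 at a fold change of 2 and 1065 under treat. The 981 interaction calls became 449 at a fold change of 2, 72 under treat and 275 at an adjusted p under 0.01. The count of higher cell cycle genes, 14 of 30, was 2 at a fold change of 2, 2 under treat, 6 by the unequal-variance test and 24 without a fold threshold. That of higher ribosome biogenesis genes, 13 of 22, was 3 at a fold change of 2, 2 under treat and 6 by the unequal-variance test. The 27 higher genes of the chromosome 19 stretch stayed between 20 and 28 under every alternative. Fewer calls follow from the stricter thresholds themselves. The unequal-variance test estimates the spread of each gene from 6 arrays, without the other genes.

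With each of the 12 arrays left out in turn, 1861 to 2151 probe sets were higher, 1749 to 1849 lower and 2142 to 2216 called in the same direction in both treatments. The interaction gave 534 to 893 calls. It fell by over 1.5-fold without ELT3 DMSO replicate 2 (534), ELT3-245 DMSO replicate 1 (568) or 3 (631), or ELT3-245 rapamycin replicate 1 (583) or 2 (568). The cell cycle list held 11 to 14 higher genes, ribosome biogenesis 11 to 14 and the chromosome 19 stretch 26 to 27. Counts of 1 or 2 members in a list often moved by 1. Of 268 called genes that were named or met the naming rule, 245 kept the call without each array. Past no threshold were 7 after quantile normalization, 64 at a fold change of 2, 73 under treat and 80 by the unequal-variance test.

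The deviations of same-numbered arrays from their group means correlated at -0.124 to 0.215 and not above 0.1 in every pair, so the replicate number was not taken to pair the arrays. All 9 same-numbered pairs that leave out ELT3 DMSO were positive, and their replicate 3 arrays correlated at 0.147 to 0.215. With the replicate number as a block, 2053 probe sets were higher, 1831 lower, 2213 called in the same direction in both treatments and 825 by the interaction. Among the genes in the text, Car12 lost its call in rapamycin under the block (adjusted p = 0.0511) and Abcb1a that of its interaction (adjusted p = 0.0772).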
